A study of Mus musculus with 62 samples.

Results

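The genes described here encode the main potassium channels that end the action potential of heart muscle cells, together with KChIP2, an auxiliary subunit of one of them. They were chosen by symbol, with their levels in these same hearts already known, and comprise 9 of the 47643 gene symbols measured: Kcnip2, Kcnd2, Kcnd3, Kcna5, Kcnq1, Kcnh2, Kcnj2, Kcnj3 and Kcnk3. All 9 passed the filter on low values that left 12541 genes to test. Because the levels in all groups entered the choice, the values of these 9 genes are given as a description, with no test. Hearts of female mice aged 2 months were profiled by RNA sequencing in 3 arms. CAC mice had received melanoma cells that cause cachexia, the wasting of muscle and fat seen with some tumours, NCAC mice had received melanoma cells that do not, and Con mice had been mock injected. Hearts were taken at weeks 2, 4, 6 and 8, with 5 libraries in each group except CAC at week 8, which had 7, and Con at week 4, where 4 of 5 were used. The sample labels name the strain C57BL6/J and the design text names NCI Ath/nude mice. CAC and NCAC differ in the injected cells as well as in wasting, so cachexia and cell line cannot be told apart.

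Repolarisation of a cardiac myocyte is shared among several potassium currents. In mouse ventricle the fast transient outward current passes through Kv4 channels, formed by Kcnd2 (Kv4.2) and Kcnd3 (Kv4.3), and KChIP2, the product of Kcnip2, binds these pores, carries them to the membrane and sets their kinetics. Kcna5 (Kv1.5) forms an ultra-rapid delayed rectifier, Kcnq1 (KCNQ1) with the small subunit Kcne1 the slow one and Kcnh2 (ERG1) the rapid one. Kcnj2 (Kir2.1) forms the inward rectifier that holds the resting potential, Kcnj3 (GIRK1) with Kcnj5 (GIRK4) forms the channel opened by acetylcholine, and Kcnk3 (TASK-1) is a background leak channel.

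Since Kcnip2 and Kcnd2 encode partners in the same channel but behaved differently in the CAC hearts, the sequences before their start sites are shown side by side. They are RefSeq sequences of build GRCm38.p6, each the 250 bases before the start, written 5′ to 3′ along the gene, and capitals mark matches to GGGNGG on either strand. The Kcnip2 sequence lies at chr19:45816064-45816313 on the minus strand, and the Kcnd2 sequence at chr6:21215096-21215345 on the plus strand.
Kcnip2: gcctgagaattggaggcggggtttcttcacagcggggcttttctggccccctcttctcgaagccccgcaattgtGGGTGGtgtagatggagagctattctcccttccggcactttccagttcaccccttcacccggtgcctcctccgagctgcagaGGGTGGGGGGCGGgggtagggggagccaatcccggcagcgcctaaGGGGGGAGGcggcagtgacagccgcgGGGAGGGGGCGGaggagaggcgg
Kcnd2: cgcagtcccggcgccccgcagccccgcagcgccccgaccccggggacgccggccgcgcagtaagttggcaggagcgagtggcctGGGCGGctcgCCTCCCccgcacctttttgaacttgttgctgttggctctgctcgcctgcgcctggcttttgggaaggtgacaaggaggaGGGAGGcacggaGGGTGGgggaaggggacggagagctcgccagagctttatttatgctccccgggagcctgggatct
The G-rich motif GGGNGG, the core of sites bound by Sp and Krüppel-like factors, had 8 matches before Kcnip2 and 4 before Kcnd2, some of them overlapping, and 64.5% of 32851 promoter sequences of this length held at least 1. GC content was 66.8% and 68.8%, against a median of 52.4% over all promoters. CpG dinucleotides numbered 15 before Kcnip2 and 22 before Kcnd2, against a median of 6.00. The other motifs searched, on both strands, had no match in either sequence. They were the promoter element TATAAA, present in 12.4% of all promoters, and the motif AGATAA of zinc-finger factors such as Gata4, present in 9.99%. The clock-factor motif CACGTG was in 6.02%, the motif TTCNNNGAA of cytokine-activated factors in 7.02% and the Iroquois-factor motif ACATGT in 4.58%. Of the 7 genes of this group with a promoter sequence in the table, only Kcnj2 had a CACGTG, starting at base -84 from its start site. These matches describe letters in a window and not occupied sites.

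In the mm10 annotation used (GENCODE M21, a version not stated by the authors), Kcnip2 spans chr19:45791839-45816061 on the minus strand, and Kcnq1 spans chr7:143106362-143427042 on the plus strand. Kcnd2 lies at chr6:21215503-21729805, Kcnd3 at chr3:105452330-105674002, Kcnj2 at chr11:111066164-111076821, Kcnj3 at chr2:55435970-55598145 and Kcnk3 at chr5:30588170-30625271, all on the plus strand. Kcna5 at chr6:126532551-126535412 and Kcnh2 at chr5:24319589-24351604 are on the minus strand. The values are sums over whole genes, so isoforms cannot be separated. Several genes overlap Kcnq1, among them the antisense transcript Kcnq1ot1, which was listed at 0 TPM in all 61 libraries, and Kcnd3os, antisense to Kcnd3, stood between 0.0322 and 1.02 TPM. Whether strand was used in counting is not given in the sources used here, so reads of such overlapping partners may not be separated.

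Levels are in TPM, a share of each library's transcripts scaled for gene length, so that levels of different genes can be compared. Differences between groups are differences of mean log2(TPM + 1) with the standard error (SE) of a limma fit over 61 libraries, and they understate the change of low genes. Read depth was not analysed here, as TPM keeps no depth, and nothing in the labels beyond the term biological replicates and the heart numbers says how the animals were kept apart. The share of TPM from mitochondrially encoded genes was 49.3 to 61.1% over the 61 libraries. At week 2 it was 54.2 to 55.4% in CAC and 56.6 to 60.6% in Con, at week 4 52.0 to 55.6% and 56.8 to 59.2%, and at week 6 49.3 to 53.2% and 57.5 to 60.9%. All CAC libraries lay below all Con libraries at those 3 weeks, while at week 8 CAC, at 50.1 to 55.7%, overlapped Con, at 52.9 to 61.1%. The part of this share in the differences between CAC and Con was not tested. In replicate 2 of Con at week 4, which the rule that chose the genes left out, the mitochondrial share was 89.1%. The median log2 difference over all 12541 genes, CAC minus Con, was 0.10, 0.09, 0.21 and 0.19 at weeks 2, 4, 6 and 8, so differences relative to that median are also given. Against NCAC the median was 0.07, 0.08, 0.19 and 0.24. Replicate 3 of CAC at week 8 stood apart from its group, with 54.9 TPM of the acute-phase gene Serpina3n against 1665 to 2841 TPM in the other 6, and results at week 8 that it moves are given with and without it.

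The labels name the heart without saying which part of it was taken, and this was checked against marker genes. Ventricular markers were present in every library, Myl2 at 2798 to 6102 TPM and Myl3 at 2348 to 4273 TPM, followed by Lrrc10 at 98.9 to 242 TPM, Irx4 at 15.8 to 34.0 TPM and Hey2 at 2.89 to 7.81 TPM. The atrial markers Myl7, Sln and Bmp10 reached at most 0.862, 1.04 and 0.429 TPM, and Myl4 at most 1.51 TPM, so the defining atrial markers were at or near 0 throughout. The other atrial markers on the list are also made outside the atria: Nppa ranged from 20.4 to 2192 TPM, Stard10 from 7.32 to 14.8 TPM and Dkk3 from 1.01 to 8.00 TPM. Kcna5 and Kcnj3, which are known for high levels in atria, were thus measured here at 5.14 to 25.0 TPM and 11.3 to 27.0 TPM in libraries with these atrial levels.

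In mock hearts the 9 genes covered a wide range of levels. At week 8 Kcnk3 averaged 102 ± 17.3 TPM (SD, n = 5) and Kcnip2 88.9 ± 6.87 TPM, and their ranges overlapped. Kcnh2 followed at 37.0 ± 6.16 TPM, apart from its neighbours on either side. Kcnj3 (21.6 ± 3.85 TPM), Kcnj2 (20.6 ± 5.24 TPM) and Kcnq1 (18.4 ± 2.17 TPM) were not separable from neighbour to neighbour. Kcna5 (12.1 ± 1.64 TPM) overlapped Kcnd2 (10.9 ± 0.761 TPM), and Kcnd3 came last and apart at 3.27 ± 0.716 TPM. NCAC hearts at week 8 gave the same order of means, from Kcnk3 at 97.6 ± 10.4 TPM to Kcnd3 at 2.77 ± 0.472 TPM (SD, n = 5). In CAC hearts at week 8 the order was Kcnk3 at 63.3 ± 5.51 TPM (SD, n = 7), Kcnq1 at 47.8 ± 11.1 TPM, Kcnh2 at 47.0 ± 10.7 TPM, Kcnip2 at 26.1 TPM (range 13.5 to 50.4 TPM), Kcna5 at 20.5 ± 3.80 TPM, Kcnj2 at 15.7 ± 3.29 TPM, Kcnj3 at 15.1 ± 3.30 TPM, Kcnd2 at 10.2 ± 2.65 TPM and Kcnd3 at 3.37 ± 0.545 TPM. Kcnq1 had moved from the sixth place to the second and Kcnip2 from the second to the fourth, although every neighbouring pair in the CAC order except Kcnd2 and Kcnd3 overlapped in range.

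**Figure D1:**
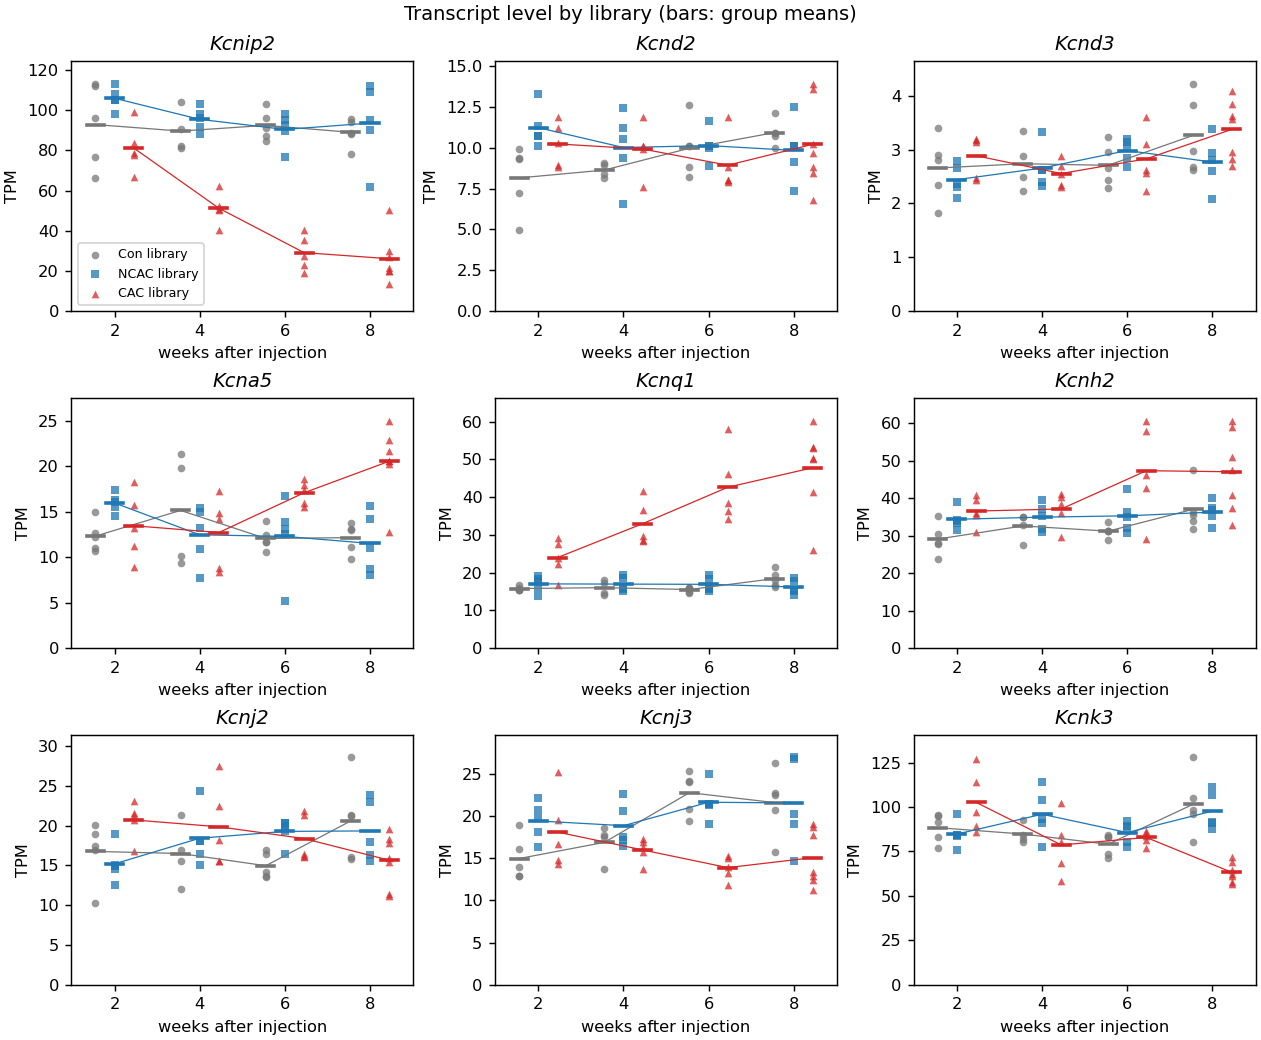
Transcript level in TPM (vertical axes, linear and starting at 0) against weeks after injection for each of the 9 genes; each point is a library (Con grey circles, NCAC blue squares, CAC red triangles) and each bar is a group mean, joined by lines within an arm. Kcnip2 in CAC steps down from 81.1 TPM at week 2 to 26.1 TPM at week 8. Kcnq1 in CAC steps up from 24.0 to 47.8 TPM over those weeks. The CAC ranges of Kcnd2 and Kcnd3 overlap those of each other arm at every week. For Kcnd2 at week 6, 3 CAC hearts lie below all Con hearts, and 4 lie below and 1 above all NCAC hearts.

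A gene is called here when its limma adjusted p (Benjamini-Hochberg over all genes tested) is under 0.05. For the 9 genes these counts are a description, because the choice of genes drew on the same values, and they are printed beside the share of all genes called. CAC against Con, 1 of the 9 was called at week 2 (Kcnq1), 2 at week 4 (Kcnip2 and Kcnq1), 4 at week 6 (with Kcnh2 and Kcnj3) and 7 at week 8 (all but Kcnd2 and Kcnd3). The share of all genes called was 1.84, 15.0, 55.8 and 60.8% at those weeks. CAC against NCAC, 0, 3, 5 and 6 of the 9 were called at weeks 2, 4, 6 and 8, against 0.590, 16.5, 54.5 and 66.1% of all genes. The 6 at week 8 were 3 higher (Kcna5, Kcnq1 and Kcnh2) and 3 lower (Kcnip2, Kcnj3 and Kcnk3), beside 57.4 and 8.76% of all genes. NCAC against Con, 0 of the 9 were called at any week by limma, against 0, 0, 0 and 0.710% of all genes. An unadjusted p under 0.05 was found for 2, 0, 1 and 0 of the 9 and for 1003, 103, 213 and 1942 of all genes. The comparisons with Con and with NCAC share the CAC libraries and are not independent of each other.

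The direction of calls depends on scaling. At week 8, CAC against Con, 6368 genes were called higher and 1251 lower with TPM as deposited, and 3391 higher and 3106 lower after median-of-ratios rescaling, which brings the median difference to 0.01. Of the 9 genes, 3 were higher and 4 lower as deposited, beside 50.8 and 9.98% of all genes, and 2 higher and 5 lower after rescaling. Kcnh2 lost its call and Kcnd2 gained one, as lower. Rescaled, Kcnd2 was also called lower at week 6, against both Con and NCAC, but not at week 8 against NCAC. Kcnh2 also lost its calls at week 6 against Con and at weeks 6 and 8 against NCAC. Against NCAC, Kcna5 lost its call at week 6, while Kcnk3 at week 6 and Kcnj2 at week 8 gained calls as lower. Ranges that did not overlap between CAC and Con were seen for Kcnq1 alone at week 2, for Kcnip2 and Kcnq1 at week 4, for Kcnip2, Kcna5, Kcnq1 and Kcnj3 at week 6, and for Kcnip2, Kcnq1 and Kcnk3 at week 8. Among all genes, ranges were apart for 7.82, 17.0, 39.3 and 13.2% at those weeks. Against NCAC, 0, 2, 3 and 3 of the 9 were apart, and 5.25, 13.2, 34.3 and 17.0% of all genes. Between NCAC and Con, only Kcnd2 at week 2 was apart, beside 1.24, 0.407, 0.502 and 1.81% of all genes at the 4 weeks.

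**Figure D2:**
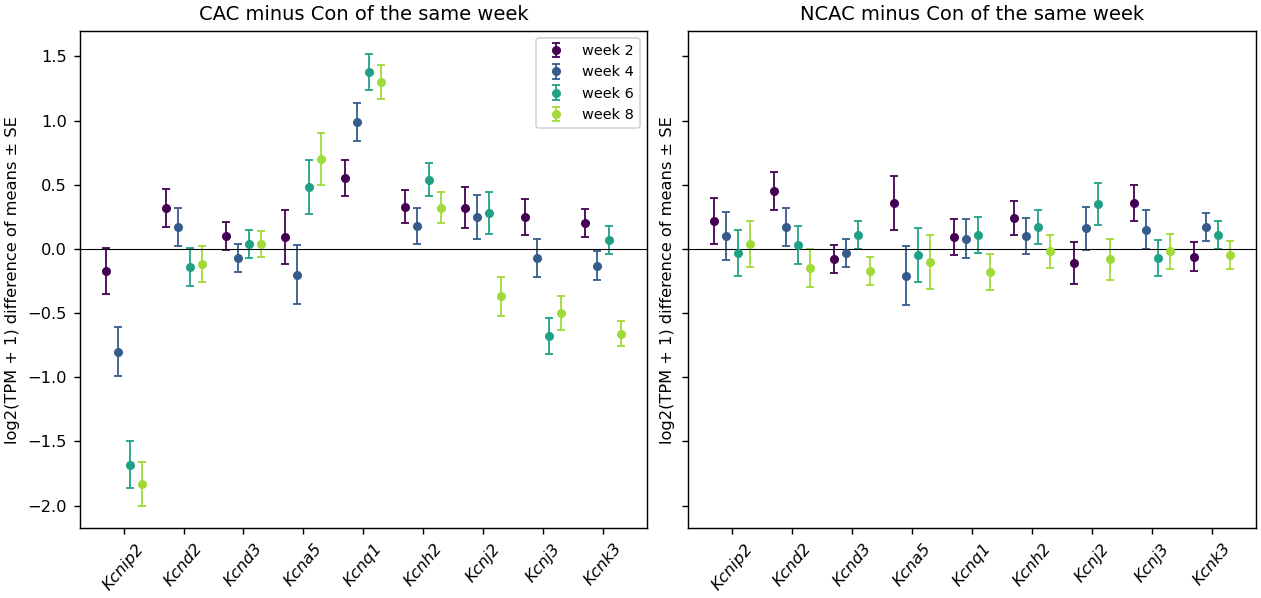
Difference of mean log2(TPM + 1) for the 9 genes at weeks 2, 4, 6 and 8, CAC minus Con on the left and NCAC minus Con on the right; points are differences and bars are the SE of the limma fit. On the left Kcnip2 reaches -1.83 and Kcnq1 1.30 at week 8, while on the right all 36 points lie between -0.21 and 0.45.

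Kcnip2 was the gene of the group that stood lowest relative to mock. Its level in CAC hearts was 3.17-fold lower than in Con at week 6 and 3.41-fold lower at week 8 as ratios of mean TPM, and it stepped down from week 2 to week 6. At week 2, the 5 CAC hearts had 83.4, 99.2, 77.8, 66.6 and 78.5 TPM, the Con hearts 66.3, 76.5, 96.0, 113 and 112 TPM, and the NCAC hearts 105, 105, 98.1, 108 and 113 TPM. The CAC values lay within the Con range and mostly below the NCAC range. At week 4, CAC had 50.6, 40.5, 62.3, 52.4 and 50.2 TPM, Con 90.7, 104, 81.3 and 82.1 TPM, and NCAC 103, 98.2, 95.8, 88.2 and 91.6 TPM. Every CAC heart was then below every heart of the other arms. At week 6, CAC had 27.6, 22.8, 35.6, 19.1 and 40.6 TPM, Con 87.1, 84.5, 95.9, 103 and 91.3 TPM, and NCAC 89.5, 98.1, 92.5, 94.8 and 76.8 TPM. By week 8 the CAC hearts ranged from 13.5 to 50.4 TPM with a median of 21.6 TPM, Con had 78.0, 93.9, 88.8, 95.6 and 88.3 TPM, and NCAC 89.9, 109, 61.7, 112 and 94.9 TPM. The highest CAC value at week 8 was that of replicate 3, and the other 6 hearts had at most 30.1 TPM.

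The log2 difference of Kcnip2, CAC minus Con, was -0.17 at week 2 (SE 0.18), -0.80 at week 4 (SE 0.19), -1.68 at week 6 (SE 0.18) and -1.83 at week 8 (SE 0.17). Relative to the median of all genes it was -0.27, -0.89, -1.88 and -2.02. Without replicate 3 of CAC the week 8 difference was -2.00 (SE 0.15). Against NCAC it was -0.39, -0.90, -1.65 and -1.87 at the 4 weeks. Within CAC, week 4 stood 0.65 below week 2 on the log2 scale (difference -0.65, SE 0.18), and week 6 stood below week 4 (-0.83, SE 0.18). Week 8 against week 6 differed by -0.21 (SE 0.17), close to its error. Con and NCAC showed no such course, with week 8 minus week 2 at -0.03 and -0.21 (SE 0.18 each). The Con library left out at week 4 had 7.31 TPM of Kcnip2, and with it the week 4 difference from Con was -0.11.

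Both pores that KChIP2 serves had CAC levels that overlapped those of Con at every week. Kcnd2 in CAC averaged 10.2 ± 1.36, 9.91 ± 1.55, 8.93 ± 1.71 and 10.2 ± 2.65 TPM at weeks 2, 4, 6 and 8 (SD, n = 5, 5, 5 and 7), and Con 8.15 ± 2.05, 8.63 ± 0.436, 9.94 ± 1.68 and 10.9 ± 0.761 TPM (SD, n = 5, 4, 5 and 5). At week 8 the CAC hearts ran from 6.77 to 13.9 TPM, median 9.68 TPM, on both sides of the Con range of 10.0 to 12.1 TPM. The difference from Con was 0.32, 0.17, -0.14 and -0.12 at the 4 weeks (SE 0.14 to 0.15), and -0.35 and -0.31 at weeks 6 and 8 relative to the median of all genes. Kcnd2 also varied outside CAC: Con hearts at week 2, with 4.98, 7.20, 9.32, 9.35 and 9.90 TPM, all lay below the NCAC hearts of that week at 10.1, 10.7, 11.3, 13.3 and 10.7 TPM. Kcnd3 stood between 2.24 and 4.09 TPM in all CAC hearts and between 1.83 and 4.22 TPM in all Con hearts. Its difference from Con was 0.10, -0.07, 0.04 and 0.04 at the 4 weeks (SE 0.10 to 0.11).

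Ratios taken within a library do not depend on its scaling. The ratio of Kcnip2 to Kcnd2 in Con was 11.5 ± 1.21, 10.4 ± 1.58, 9.45 ± 1.31 and 8.19 ± 1.01 at weeks 2, 4, 6 and 8 (SD, n = 5, 4, 5 and 5). In CAC it was 8.00 ± 1.27, 5.30 ± 1.25, 3.33 ± 1.11 and 2.69 ± 1.33 (SD, n = 5, 5, 5 and 7). The CAC and Con hearts did not overlap in this ratio at any of the weeks, with CAC at 6.44 to 9.48 and Con at 10.3 to 13.3 at week 2, and CAC at 1.33 to 5.21 and Con at 6.43 to 8.85 at week 8. NCAC averaged 9.51 ± 1.08, 10.0 ± 2.84, 9.03 ± 1.52 and 9.49 ± 1.16 (SD, n = 5 each). At week 2 the NCAC range of 8.12 to 10.6 overlapped that of CAC, in the week when Kcnd2 in Con lay below NCAC. In that week Kcnip2 and Kcnd2 taken singly each overlapped between CAC and Con. Kcnd2 in Con averaged 8.15 ± 2.05 TPM at week 2 and 10.9 ± 0.761 TPM at week 8, with no overlap. How often ratios of other gene pairs lie apart between CAC and Con was not examined. At weeks 4, 6 and 8 NCAC, at 7.93 to 14.6, 6.61 to 10.7 and 8.40 to 11.0, lay above CAC, at 3.39 to 6.62, 2.32 to 4.61 and 1.33 to 5.21. Replicate 3 gave the highest CAC ratio at week 8, and the other 6 hearts averaged 2.27 ± 0.807 (SD, n = 6), at most 3.42. With both pores summed, CAC held 2.01 ± 1.03 transcripts of Kcnip2 per pore transcript at week 8 (SD, n = 7), and Con 6.29 ± 0.704 (SD, n = 5). Without replicate 3 the CAC value was 1.68 ± 0.593 (SD, n = 6). The ratio of Kcnd2 to Kcnd3 was 3.01 ± 0.535 in CAC (SD, n = 7) and 3.49 ± 0.818 in Con at week 8 (SD, n = 5), with overlapping ranges.

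**Figure D3:**
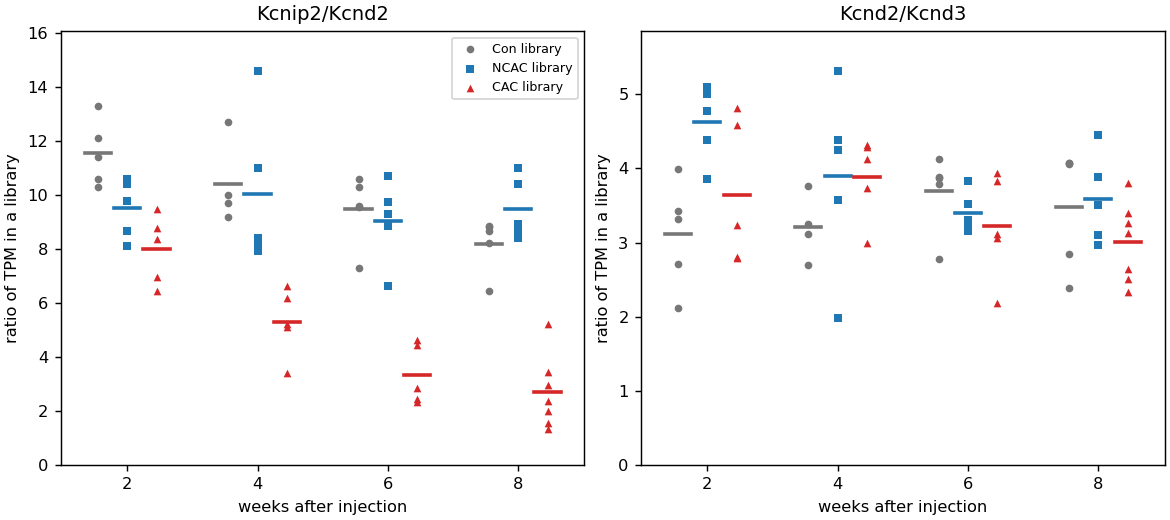
Ratio of TPM within each library against weeks after injection, Kcnip2 to Kcnd2 on the left and Kcnd2 to Kcnd3 on the right (linear axes from 0); points are libraries and bars are group means. The left ratio in CAC goes from 8.00 at week 2 to 2.69 at week 8 with the Con means at 11.5 and 8.19, and the right ratio overlaps between CAC and Con at each week.

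Kcnq1 was the gene of the group that stood highest relative to mock, and its course in CAC ran opposite to that of Kcnip2. It was 1.52-fold higher in CAC than in Con at week 2, 2.06-fold at week 4, 2.75-fold at week 6 and 2.60-fold at week 8. At week 2, CAC hearts had 16.8, 23.8, 29.2, 27.7 and 22.4 TPM, Con 15.5, 15.5, 16.7, 15.3 and 15.8 TPM, and NCAC 17.7, 18.4, 13.9, 19.0 and 16.0 TPM. The lowest CAC heart lay just above the Con range and inside the NCAC range. At week 4, CAC had 28.3, 41.7, 29.6, 36.5 and 28.7 TPM, Con 18.1, 14.0, 14.7 and 17.2 TPM, and NCAC 16.0, 18.5, 19.3, 15.2 and 15.7 TPM. At week 6, CAC had 58.1, 36.2, 34.3, 46.0 and 38.5 TPM, Con 14.9, 15.9, 16.0, 16.0 and 14.7 TPM, and NCAC 18.3, 15.6, 16.0, 15.1 and 19.4 TPM. From week 4 on, every CAC heart was above every heart of the other arms, and the Con and NCAC values stayed in a narrow band. By week 8 the CAC hearts ranged from 26.1 (replicate 3) to 60.3 TPM with a median of 50.5 TPM, Con had 16.3, 21.6, 19.4, 16.8 and 17.9 TPM, and NCAC 15.5, 15.1, 14.0, 17.7 and 18.6 TPM.

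The log2 difference of Kcnq1 from Con was 0.55, 0.99, 1.38 and 1.30 at weeks 2, 4, 6 and 8 (SE 0.13 to 0.15), and 0.45, 0.90, 1.17 and 1.11 relative to the median of all genes. Without replicate 3 it was 1.43 at week 8 (SE 0.11), and the other 6 hearts averaged 51.4 ± 6.16 TPM (SD, n = 6). Against NCAC it was 0.46, 0.91, 1.27 and 1.47. The call at week 2 was lost after rescaling. Transcripts of Kcnq1 per transcript of Kcnip2 averaged 0.177, 0.181, 0.168 and 0.207 in Con at the 4 weeks, and 0.304 ± 0.0904, 0.666 ± 0.219, 1.60 ± 0.659 and 2.24 ± 1.19 in CAC (SD, n = 5, 5, 5 and 7), a ratio chosen after the values were seen. At week 8 it was 0.517 in replicate 3 and 2.52 ± 1.00 in the other 6 hearts (SD, n = 6). Kcne1, the small subunit that slows KCNQ1 channels, was not called at week 8. It averaged 2.67 ± 1.18 TPM in the CAC hearts and 2.44 ± 1.02 TPM in the mock hearts, a difference of 0.07 (SE 0.23, limma adjusted p 0.794).

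**Figure D4:**
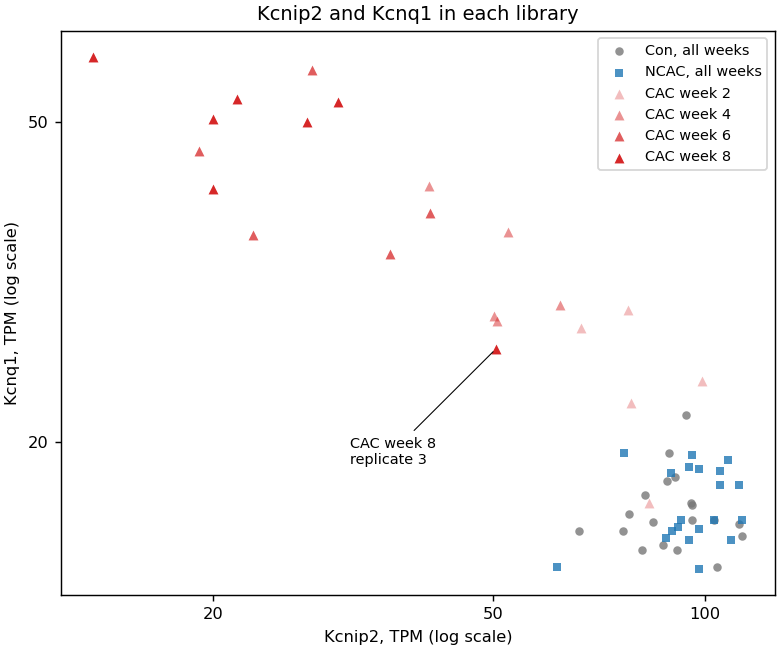
Kcnq1 against Kcnip2 in TPM, both axes logarithmic, for each of the 61 libraries; Con grey circles, NCAC blue squares, CAC red triangles darkening from week 2 to week 8. Con and NCAC libraries share the lower right corner, the CAC libraries lie along a path to the upper left, and CAC week 8 replicate 3 (50.4 TPM of Kcnip2, 26.1 TPM of Kcnq1) lies with the CAC libraries of week 4.

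Kcna5 was higher in CAC hearts late. At weeks 2 and 4 the arms overlapped, with CAC at 13.4 ± 3.68 and 12.7 ± 3.94 TPM (SD, n = 5 each). At week 6, CAC had 18.6, 15.5, 17.9, 17.4 and 15.9 TPM and Con 12.4, 10.5, 11.6, 14.0 and 11.7 TPM, a difference of 0.48 (SE 0.21), or 0.27 relative to the median of all genes. The groups did not overlap, although NCAC at 5.14 to 16.7 TPM overlapped CAC. By week 8 they ranged from 12.8 to 25.0 TPM with a median of 20.6 TPM, and Con had 11.1, 9.76, 13.1, 13.7 and 13.0 TPM, a difference of 0.70 (SE 0.20), or 0.51 relative to the median. Replicate 3 gave the lowest CAC value. Without it the other 6 hearts, at 20.2 to 25.0 TPM, lay above all Con and NCAC hearts of week 8, and the difference was 0.80 (SE 0.20). Con at week 4, at 9.29 to 21.3 TPM, reached into the range of these 6 hearts.

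Kcnh2 differed less. CAC averaged 47.3 ± 12.6 TPM and Con 31.2 ± 1.64 TPM at week 6 (SD, n = 5 each), with the CAC hearts spread over 58.0, 46.1, 29.2, 60.5 and 42.8 TPM. The difference was 0.54 (SE 0.13), and 0.34 relative to the median of all genes. The CAC hearts of week 8 ran from 32.7 to 60.7 TPM, median 47.6 TPM, and Con had 31.8, 47.6, 35.6, 33.9 and 36.2 TPM, a difference of 0.32 (SE 0.12) that was 0.13 relative to the median. Replicate 3 was the lowest CAC heart here too, and without it the difference was 0.40 from Con and 0.42 from NCAC (SE 0.12 each). The ranges of CAC and Con overlapped at all 4 weeks.

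The leak channel gene Kcnk3 stood apart from mock at week 8. CAC averaged 103 ± 17.4, 78.6 ± 16.5 and 82.9 ± 3.91 TPM at weeks 2, 4 and 6, and Con 88.4 ± 8.13, 84.8 ± 5.59 and 79.1 ± 6.16 TPM (SD, n = 5 per group, 4 for Con at week 4). At those weeks the ranges overlapped and the differences were 0.20, -0.13 and 0.07 (SE 0.11 each), the last becoming -0.14 relative to the median of all genes. Against NCAC the difference at week 4 was -0.30 (SE 0.11), with overlapping ranges. At week 6 the difference from NCAC was -0.05 (SE 0.11), or -0.24 relative to the median, and was called lower only after rescaling. The 7 CAC hearts of week 8 ranged from 56.7 to 71.6 TPM with a median of 62.5 TPM, Con had 96.3, 128, 98.1, 105 and 80.6 TPM, and NCAC 91.7, 87.7, 107, 91.1 and 111 TPM. All 7 CAC hearts lay below all hearts of the other arms at that week, with a difference of -0.66 from Con (SE 0.10) and -0.85 relative to the median. Con at week 8, at 102 ± 17.3 TPM, was the highest of the Con means, and CAC, at 63.3 ± 5.51 TPM, the lowest of the CAC means. Both enter the difference, and the lowest Con heart of week 6, at 71.4 TPM, lay within the CAC range of week 8. Replicate 3, the lowest CAC heart of week 8 for Kcnq1 and Kcna5, had 61.1 TPM of Kcnk3 and was not apart from the other CAC hearts, and without it the difference was -0.65 (SE 0.10).

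Kcnj3, the acetylcholine-gated subunit, took a different course in mock hearts. Con averaged 15.0 ± 2.58, 16.9 ± 2.17, 22.8 ± 2.53 and 21.6 ± 3.85 TPM at weeks 2, 4, 6 and 8 (SD, n = 5, 4, 5 and 5), with week 8 minus week 2 at 0.50 (SE 0.14). CAC averaged 18.1 ± 4.48, 16.0 ± 1.38, 13.9 ± 1.43 and 15.1 ± 3.30 TPM (SD, n = 5, 5, 5 and 7), with week 8 minus week 2 at -0.25 (SE 0.13). So a higher level in late Con hearts and a lower level in late CAC hearts both enter the difference between the arms. At week 6, CAC had 15.1, 14.0, 13.3, 11.8 and 15.3 TPM, all below Con at 19.4, 24.1, 24.2, 20.9 and 25.4 TPM, a difference of -0.68 (SE 0.14), or -0.88 relative to the median of all genes. The week 8 hearts of CAC ran from 11.3 to 19.1 TPM, median 13.4 TPM, against 22.5, 26.3, 20.7, 15.8 and 22.8 TPM in Con, a difference of -0.50 (SE 0.13) with overlapping ranges. NCAC at week 8 had 26.8, 20.3, 14.7, 27.0 and 19.1 TPM, and CAC minus NCAC was -0.48 (SE 0.13).

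Kcnj2 changed sides. Its difference from Con was 0.32, 0.25 and 0.28 at weeks 2, 4 and 6 (SE 0.16 to 0.17) and -0.37 at week 8 (SE 0.15), and relative to the median of all genes 0.22, 0.16, 0.07 and -0.56. At week 2, CAC had 16.8, 21.4, 21.6, 23.1 and 20.7 TPM and Con 10.3, 17.4, 19.0, 20.1 and 17.0 TPM. The lowest Con heart, at 10.3 TPM, lay below the other Con hearts at 17.0 to 20.1 TPM. With each library left out in turn, the week 2 difference from Con was 0.16 to 0.39. Later, CAC at week 8 ran from 11.2 to 19.6 TPM, median 15.9 TPM, and Con had 21.4, 28.6, 21.2, 15.8 and 16.0 TPM. Ranges overlapped at all 4 weeks, and the spread of Con at week 8, 20.6 ± 5.24 TPM (SD, n = 5), was of the size of the difference. Con at week 6 averaged 14.9 ± 1.58 TPM (SD, n = 5), so a higher level in Con at week 8 also enters the change of sign. CAC minus NCAC was 0.43, 0.09, -0.07 and -0.29 at the 4 weeks (SE 0.15 to 0.16).

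Values of other cell types moved along with these differences. In RNA of bulk tissue, fewer cells of a type and less RNA per cell cannot be told apart. All 6 macrophage markers (Adgre1, Cd68, Csf1r, C1qa, C1qb and Fcgr1) rose in CAC against Con at week 8, and their summed level was 201 to 478 TPM in CAC and 97.4 to 138 TPM in Con. Of 6 fibroblast markers 3 rose (Pdgfra, Dcn and Dpt), with sums of 745 to 1468 TPM against 542 to 661 TPM. Among all genes 50.8% were called higher and 9.98% lower in this comparison, so 3 of 6 is near the share of all genes. These calls use TPM as deposited, and the direction of calls depends on scaling, as given above. At week 2 the macrophage sums overlapped, at 113 to 202 TPM (CAC) and 77.1 to 133 TPM (Con). In that week 1 of the 6 markers was called, with a median difference of 0.47 beside 0.10 over all genes, and all 6 were called at weeks 4, 6 and 8. The shares of all genes called at weeks 2, 4, 6 and 8 were 1.84, 15.0, 55.8 and 60.8%. Summed cardiomyocyte markers overlapped, 16428 to 18432 TPM in CAC and 15867 to 20704 TPM in Con at week 8, with 2 of 8 called higher and 3 lower. The sum thus does not show the course of single markers. Myh6, 1 of the 8, was at 3419 to 5634 TPM in CAC. It lay at 5797 to 8033 TPM in Con and 6355 to 7304 TPM in NCAC of that week, with no overlap. The part of macrophage and fibroblast RNA in the differences of Kcnip2, Kcnq1 and the other genes was not tested. No marker of these 3 lists was at 0 in either group at week 8.

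Vessel, conduction and other markers were examined in the same comparison, CAC against Con at week 8. In it 50.8% of all genes were called higher and 9.98% lower, with TPM as deposited. Of 5 smooth muscle markers 2 fell, Acta2 (-0.91, limma adjusted p 0.00908) and Smtn (-0.50, 3.38e-04), and the sums were 160.5 to 254 TPM in CAC and 247 to 317 TPM in Con. Of 5 pericyte markers Cspg4 rose and Rgs5 and Vtn fell, with sums of 209.6 to 297 TPM against 259 to 325 TPM. The endothelial markers Cdh5 and Kdr fell, 2 of 6, with sums of 216 to 283 TPM against 255 to 319 TPM. Among 6 conduction and pacemaker markers, the pacemaker channel gene Hcn4 fell from 3.29 to 1.32 TPM (-0.86, limma adjusted p 5.87e-05). The sums of this list overlapped, at 9.03 to 14.2 TPM and 8.87 to 15.7 TPM, and Isl1 was listed at 0. Schwann and neural markers summed to 4.32 to 8.35 TPM and 3.76 to 8.35 TPM, overlapping. Skeletal muscle markers summed to 2.02 to 3.36 TPM and 1.16 to 2.00 TPM, with 1 of 2 tested higher (Tnni2) and Myh2 and Myh4 listed at 0 in Con. Adipocyte markers summed to 0.124 to 4.54 TPM and 0.219 to 0.621 TPM, and both that were tested rose (Adipoq and Cidec). The part of these cell types in the values of the 9 genes was not tested.

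Atrial and ventricular markers moved too, beside 60.8% of all genes called against Con at week 8. Against Con at week 8, Nppa, the atrial natriuretic peptide gene, rose by 2.00 (SE 0.82, limma adjusted p 0.0311) and Dkk3 by 1.05 (SE 0.17, 4.95e-07), Stard10 was not called (-0.21, 0.0721), and the other 4 atrial markers were too low to test. Of 5 ventricular markers, Lrrc10 (0.44, limma adjusted p 0.00811), Hey2 (0.33, 0.00987) and Irx4 (0.27, 0.0376) rose, Myl2 fell (-0.33, 4.37e-04) and Myl3 was not called (-0.04, 0.621). The summed atrial list was 83.5 to 1546 TPM in CAC and 113 to 264 TPM in Con, most of it Nppa, and the ventricular sum 5382 to 8401 TPM against 7187 to 8932 TPM. Their part in the levels of Kcnip2 and Kcnk3 was not tested.

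Other genes of the pathway are given with the limma test over all genes. Their lists, too, were drawn up with earlier results of these data known, so the tests are not independent support. Of 43 other pore-forming potassium channel genes, 19 passed the filter, and at week 8, CAC against Con, 7 rose, 5 fell and 7 were not called by limma at an adjusted p under 0.05, with a median log2 difference of 0.01 beside 0.19 over all genes. Kcnj5 (GIRK4), the partner of Kcnj3, fell from 31.5 ± 3.60 TPM in Con (SD, n = 5) to 20.3 ± 2.65 TPM in CAC (SD, n = 7), a difference of -0.62 (SE 0.10, limma adjusted p 1.88e-06), with all 7 CAC hearts below all Con hearts of week 8. It was already lower at weeks 4 and 6 (-0.40, limma adjusted p 0.0178, and -0.38, 0.00397), whereas at week 2 its difference was 0.01 (0.981). Kcnj11 (Kir6.2), the pore of the ATP-sensitive channel, fell from 69.6 ± 8.47 to 48.8 ± 2.98 TPM, a difference of -0.50 (SE 0.09, limma adjusted p 1.01e-05), again with no overlap. At weeks 2, 4 and 6 Kcnj11 was not called.

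The other pore genes named were low. Kcnv2, a subunit that forms channels only with Kv2 partners, fell from 6.02 ± 0.819 TPM in Con to 2.77 ± 0.679 TPM in CAC (-0.91, SE 0.16, limma adjusted p 5.70e-06). Kcnk2 (TREK-1), a leak channel opened by stretch, fell from 1.26 ± 0.138 to 0.362 ± 0.196 TPM (-0.74, SE 0.10, limma adjusted p 1.22e-08). Kcnn3 (SK3), a calcium-activated channel, rose from 0.568 ± 0.199 to 2.79 ± 0.997 TPM (1.24, SE 0.16, limma adjusted p 3.78e-09). The leak channel genes Kcnk13 (THIK-1) and Kcnk6 (TWIK-2) rose by 0.65 and 0.57 (limma adjusted p 1.13e-08 and 1.12e-05), to 1.05 and 3.94 TPM. At week 2 none of the 19 pore genes was called.

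Of 22 auxiliary subunit genes, 21 were in the table and 8 passed the filter, and at week 8 against Con 3 rose, 1 fell and 4 were not called, with a median difference of 0.12 beside 0.19 over all genes. The largest rise was that of Kcne4, a small membrane subunit known to inhibit KCNQ1 channels. It ranged from 3.36 to 11.4 TPM among CAC hearts and from 1.35 to 1.74 TPM among mock hearts, a difference of 1.72 (SE 0.16, limma adjusted p 5.66e-13), and lay at 1.05 to 1.73 TPM in NCAC. Kcne4 was not called at weeks 2 and 4 (0.27, limma adjusted p 0.341, and 0.42, 0.104) and rose by 1.04 at week 6 (1.95e-06). Against NCAC it was already called higher at week 4 (0.59, limma adjusted p 0.0134). Kcnab2, a beta subunit of Kv1 channels, rose by 0.56 (SE 0.10, limma adjusted p 3.27e-06), to 1.37 TPM. Kcnip3, which is related to Kcnip2, was called higher by 0.25 (SE 0.09, limma adjusted p 0.0129), with means of 1.24 ± 0.289 and 0.884 ± 0.293 TPM, and lost the call after rescaling (adjusted p 0.182) and without replicate 1 of Con (0.0722). Abcc8 (SUR1), a regulatory subunit of the ATP-sensitive channel, fell from 17.2 to 12.1 TPM (-0.48, SE 0.09, limma adjusted p 7.84e-06). Abcc9, of the same list and more abundant, averaged 112 ± 8.74 TPM in CAC and 124 ± 12.3 TPM in Con. It was not called against Con (-0.14, SE 0.10, limma adjusted p 0.239) or against NCAC (0.01, 0.910).

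Over both lists 16 of 27 tested genes were called against Con at week 8, 10 higher and 6 lower, and after rescaling 8 higher and 11 lower. Against NCAC at week 8, 19 were called, 11 higher and 8 lower, and after rescaling 8 higher and 12 lower. The share among all genes was 60.8 and 66.1%. Kcne4 rose against NCAC by 1.74 (limma adjusted p 3.63e-13), and Kcnj5 and Kcnj11 fell (-0.62, 1.41e-06, and -0.46, 3.35e-05).

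**Figure D5:**
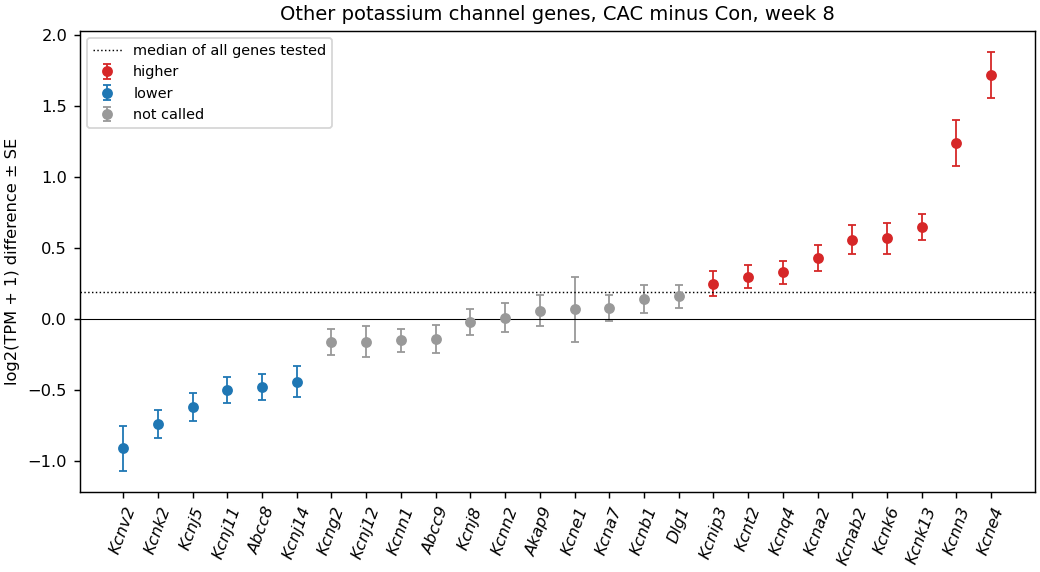
Difference of mean log2(TPM + 1), CAC minus Con at week 8, for the other potassium channel genes tested, all but 1 of the 27, ordered by value; bars are the SE of the limma fit, colours give the call, and the dotted line is the median of all genes at 0.19. Kcne4 (1.72) and Kcnn3 (1.24) stand at the upper end and Kcnv2 (-0.91), Kcnk2 (-0.74) and Kcnj5 (-0.62) at the lower end.

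Transcription factors known for roles in cardiac ion channel expression were taken as a further list. Of 23, 21 were tested, and at week 8 against Con 12 rose, 2 fell and 7 were not called, with a median difference of 0.20 beside 0.19 over all genes, and after rescaling 6 were higher and 4 lower. Among all genes 60.8% were called, 50.8% higher and 9.98% lower. Klf15, which is known to drive Kcnip2, rose from 28.9 ± 5.87 to 51.6 ± 20.8 TPM (0.75, SE 0.20, limma adjusted p 0.00104). Irx5, a known repressor of Kcnd2, rose by 0.61 (SE 0.17, limma adjusted p 0.00219) and Irx3, its relative, by 1.07 (SE 0.24, 1.87e-04). Hand2 rose by 0.72 (limma adjusted p 0.00207), and Gata4 and Mef2d fell (-0.35, 0.00144, and -0.20, 0.00952). Against NCAC at week 8, Klf15, Irx3, Irx5 and Hand2 were again called higher (0.56, 0.74, 0.40 and 0.81), with limma adjusted p of 0.0110, 0.00672, 0.0382 and 5.14e-04, and after rescaling Klf15, Irx3 and Irx5 lost that call (adjusted p 0.191, 0.0804 and 0.344). Klf15 also lost it without replicate 1 of CAC (limma adjusted p 0.0504). Irx5 lost it without replicate 2 or 6 of CAC or replicate 3 or 4 of NCAC (limma adjusted p 0.107, 0.0659, 0.110 and 0.0658).

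The genes most like each of the 9 in pattern were sought by the root mean square difference over the 12 group means of log2(TPM + 1), each gene centred on its own mean. For Kcnip2, whose group means spanned 2.08 on this scale, the nearest were Nrep (0.153), Gm19461 (0.161), Spata33 (0.176) and Nes (0.191). Nes, the intermediate filament gene nestin, averaged 4.54 TPM in CAC and 17.8 TPM in Con at week 8, and Nrep 4.33 and 15.9 TPM. For Kcnq1, spanning 1.53, the nearest were Lgmn (0.0479), a lysosomal protease gene whose week 8 means were 147 TPM (CAC) and 54.6 TPM (Con), and Ssh3 (0.0524), at 14.9 and 4.71 TPM. No tested gene outside the 9 came as close to Kcnip2 as these came to Kcnq1. The distance is not scaled to the span of a gene, so distances for Kcnip2 and Kcnq1 are not directly comparable. The nearest genes were Gatsl3 (0.0791) and Adap2 (0.0831) for Kcna5, and Tor1aip1 (0.0519) and Pcx (0.0601) for Kcnh2. They were Abtb2 (0.0752) and Ank1 (0.0763) for Kcnk3, Prrg1 (0.0927) and Arhgap20 (0.10) for Kcnj3, and Smad3 (0.0772) and Adrb1 (0.0775) for Kcnj2. For Kcnd2 and Kcnd3, whose means spanned 0.45 and 0.34, they were Qser1 (0.0677) and Zfpm2 (0.0698), and Tpst1 (0.0451) and Tanc2 (0.0464).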

How the data were processed

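Heart RNA was measured in 62 libraries of 12 groups, of which 61 were used. RNA was prepared with Trizol, and TruSeq stranded libraries were read on a NovaSeq, per the labels' protocols. The authors deposited TPM for 47643 gene symbols in all samples, mapped to mm10 per the submitters' processing notes; the aligner, counting tool and annotation are not given in the sources used here. Replicate 2 of Con at week 4 was left out by the rule that chose the genes, and its mitochondrial share was 89.1%. Groups and replicate numbers came from the sample labels, and all p-values rest on the spread among these libraries alone. No pair of libraries was identical.

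Because TPM values sum to a fixed total, abundant transcripts shift all others, and no read depth or counting interval can be given. Values were transformed as log2(TPM + 1), 12541 genes reaching 1 TPM in 5 or more libraries were kept, and group means were fitted with limma 3.58.1, its prior following the trend with mean level (R 4.3.3, data.table version 1.17.8), two-sided, with Benjamini-Hochberg adjustment in each comparison at 0.05. Summaries and figures were made with Python 3.11.15, pandas 2.3.3, numpy 2.4.6 and matplotlib 3.10.9. Other settings tried were 0.1 as pseudocount, all 23360 genes unfiltered, a minimum of 5 TPM (8788 genes), rescaling by median-of-ratios size factors from 10432 genes, a replicate block, the library left out included, separate fits of the groups being compared, and every library dropped in turn.

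The 9 genes and all lists were chosen with earlier results of these data known. Named besides the 9 were, from each list, the genes called in CAC against Con at week 8 where 5 or fewer were called, otherwise the top 4 in each direction, the nearest genes in pattern, the atrial and ventricular markers, the called markers of other cell types and Kcne1 (both chosen after their values were seen), Kcnq1ot1, Kcnd3os and Serpina3n. Abcc9 and Myh6 were also named after their values were seen. Promoter sequences were matched by symbol to RefSeq promoters, which held 7 of the 9. Markers of conduction cells, smooth muscle, pericytes, endothelium, nerve, skeletal muscle and fat were also examined. A few genes that these rules would name are not reported here.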

Additional observations from a re-analysis of the deposited data

Results flagged for a closer look

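Each of the 9 genes was examined in the 12 groups, 108 groups of values in all, for a library far from the others of its group. Chance alone marks about 1 such group in 20, and 4 were found. Kcnd2 was 11.9 TPM in replicate 1 of CAC at week 6, above the other 4 hearts at 7.89 to 8.80 TPM. Kcna5 was 12.8 TPM in replicate 3 of CAC at week 8, below the others at 20.2 to 25.0 TPM. Kcnh2 was 47.6 TPM in replicate 2 of Con at week 8, above the others at 31.8 to 36.2 TPM. Kcnj2 was 16.5 TPM in replicate 4 of NCAC at week 6, below the others at 19.3 to 20.3 TPM.

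Kcnj2 in CAC stood above Con at week 2 and below it at week 8, and the difference CAC minus Con at week 8 lay -0.69 from that at week 2 and -0.64 from that at week 6 on the log2 scale. This difference between weeks was not tested.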

How the results depend on the processing

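The log2 differences of the 9 genes moved by less than their spread in 722 values under other settings and in all 1098 with a library left out, and no called difference changed sign. The other 24 values moved: 8 came from rescaling and 16 came from including the Con library left out at week 4. Under rescaling the CAC minus Con differences of Kcnk3 and Kcnj2 at week 6 became -0.17 and 0.05, from 0.07 and 0.28. Without a filter, 27 and 30 companion potassium channel genes were called at week 8 against Con and NCAC, from 16 and 19, and with a filter of 5 TPM 5 and 7, since fewer genes were tested.

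Counts over all genes moved more. CAC against Con at week 2, 231 genes were called, 50 after rescaling, 31 when the compared groups were fitted alone and 0 with that Con library. NCAC against Con, 89 genes were called at week 8, 711 after rescaling, 7 in the groups alone and 1 with that Con library, and 3 rather than 0 at week 2 after rescaling. CAC against NCAC at week 2, 74 were called, 129 in the groups alone and 2 with that Con library. With that library the counts at weeks 4, 6 and 8 became 7424, 3315 and 4374 against Con, from 1883, 6997 and 7619, and 621, 3274 and 5237 against NCAC, from 2074, 6841 and 8295. At week 8 it left 4 of the 9 genes called against Con, from 7, and Kcnj5, Kcnj11 and Abcc8 lost their calls (adjusted p 0.103, 0.279 and 0.0631). Except for the fewer genes under the stricter filter, the cause was not tested.

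Leaving out each library in turn gave 31 to 348 genes CAC against Con at week 2, lowest without replicate 1 of Con, and 893 to 1961 at week 4. It gave 7 to 132 and 1108 to 2176 CAC against NCAC at those weeks, and 17 to 395 NCAC against Con at week 8. The week 4 counts were lowest without CAC replicate 2 (893 and 1108), and Con replicates 4 and 5 gave 1031 and 1165. At week 2 against Con, the count was 94, 69 and 70 without CAC replicates 2, 3 and 4, and 126 and 348 without Con replicates 2 and 5. At week 2 against NCAC it was 132, 7, 10 and 36 without CAC replicates 1, 3, 4 and 5, and 24, 25 and 15 without NCAC replicates 1, 3 and 5. NCAC against Con at week 8, it was 44, 267, 35 and 19 without Con replicates 1, 2, 3 and 5, and 51, 40, 27, 17 and 395 without NCAC replicates 1 to 5.

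With the replicate number as a block, 7049 genes, 17 companion genes and 6 of the 9 genes were called CAC against Con at week 8, and 1566 genes at week 4. Residuals of same-numbered libraries correlated at 0.0119 on average over 58 pairs (range -0.276 to 0.412). Those of other pairs correlated at -0.00293 on average (range -0.434 to 0.38). No pairing by number was seen on average, which cannot exclude pairing of some hearts. Of the named transcription factors, Klf15 and Gata4 lost their call against NCAC at week 8 under the block (adjusted p 0.0595 and 0.106). Mef2d lost its call against Con in the groups alone (0.0831) and without replicate 2 of Con (0.0671).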

Other observations

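Replicate 3 of CAC at week 8, with 54.9 TPM of Serpina3n, had 50.4 TPM of Kcnip2, 26.1 TPM of Kcnq1 and 61.1 TPM of Kcnk3. Its Kcnip2 was below all Con hearts of week 8, its Kcnq1 above all of them and its Kcnk3 below all of them, while its Kcna5, at 12.8 TPM, lay in the Con range.

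The CAC hearts of week 4, replicates 1 to 5, had 36.4, 892, 52.3, 418 and 29.8 TPM of Serpina3n, values looked up after those of the 9 genes were seen. Kcnip2 in the same hearts was 50.6, 40.5, 62.3, 52.4 and 50.2 TPM, below every Con heart of that week in all 5. Kcnq1 was 28.3, 41.7, 29.6, 36.5 and 28.7 TPM, above every Con heart of that week in all 5.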
